A study of Mus musculus with 8 samples.

Results

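The 38 genes described here encode contractile proteins, cortical scaffolds, extracellular matrix and other products commonly associated with mesenchymal cells. They are 38 of the 27179 gene identifiers in a count table made from neurospheres, floating cultures of neural stem and progenitor cells of the mouse, and were found in it by matching their symbols to Entrez identifiers. They were selected on their function and on these same counts: the list was drawn up after Acta2, Ahnak and Thbs2 had been seen to be higher in Kat7 deleted than in Kat7 intact libraries. The comparison of genotypes below is therefore a description of the listed genes and supports nothing about them as a list. A total of 27 of the 38 passed the filter on low counts, which asked for about 0.603 CPM (counts scaled to library size) in at least 4 libraries, and were among the 13498 genes tested. The other 11, which are Actg2, Cnn1, Tpm2, Ahnak2, Lox, Loxl1, Postn, Tgfbi, S100a6, Snai2 and Pdgfrb, did not.

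Polyadenylated RNA was sequenced from 8 cultures, each grown from 1 C57BL/6 fetus taken at E14.5 (embryonic day). The 4 Kat7 deleted fetuses were Kat7lox/lox NesCreT/+, and the 4 Kat7 intact fetuses were Kat7+/+ NesCreT/+, so both genotypes carried the Nestin-driven Cre recombinase and the intact ones had no lox-flanked allele. Deleted replicates 3 and 4 were littermates, as were intact replicates 1 and 2, and all other fetuses had a litter of their own. The sequenced fetuses of each litter shared a single genotype. The genotypes can therefore not be compared within a litter, and differences between litters enter every comparison of genotypes. The 8 libraries held between 10687817 and 22444359 counts each, which sets the worth of a single read at 0.0436 to 0.0918 CPM. In RNA from a whole culture, a change in the share of cells that express a gene and a change in RNA per cell cannot be told apart.

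Kat7 encodes a lysine acetyltransferase that acts on histone H3 and H4. Smooth muscle and myofibroblast genes such as Acta2, Tagln, Myl9 and Cnn1 are classical targets of serum response factor (SRF) and its actin-sensing coactivators of the MRTF family, which bind a DNA element called the CArG box. YAP and TEAD proteins and the transforming growth factor beta pathway drive overlapping sets of cytoskeletal and matrix genes, and the transcription factors Snai2, Twist1, Zeb1 and Zeb2 are known from epithelial-mesenchymal transition. In the brain, the contractile genes mark mural cells of vessels, matrix genes of this kind mark meningeal and perivascular fibroblasts, and neural progenitors themselves express Zeb1, Zeb2, Sparc and several actin-binding genes.

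To show where CArG boxes and TEAD core sequences lie in 4 of these genes, the 250 bases before a RefSeq transcript start (GRCm38.p6) are printed below for the smooth muscle actin gene Acta2, the myosin light chain gene Myl9, the muscle filamin gene Flnc and the scaffold gene Ahnak. Acta2 lies at chr19:34255374-34255623 on the minus strand, Myl9 at chr2:156775214-156775463, Flnc at chr6:29432903-29433152 and Ahnak at chr19:8989034-8989283, these 3 on the plus strand. Capitals mark matches to the CArG box with 1 of its 6 middle letters free, or to GGAATG, the core recognised by TEAD proteins, on either strand. The TEAD core of Flnc begins at the last printed base and runs past the end, so it is not marked.
Acta2: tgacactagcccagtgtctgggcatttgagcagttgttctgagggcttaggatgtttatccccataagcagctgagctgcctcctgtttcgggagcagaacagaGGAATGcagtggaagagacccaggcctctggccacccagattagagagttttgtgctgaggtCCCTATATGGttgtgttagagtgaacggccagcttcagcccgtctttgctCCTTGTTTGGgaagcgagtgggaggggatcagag
Myl9: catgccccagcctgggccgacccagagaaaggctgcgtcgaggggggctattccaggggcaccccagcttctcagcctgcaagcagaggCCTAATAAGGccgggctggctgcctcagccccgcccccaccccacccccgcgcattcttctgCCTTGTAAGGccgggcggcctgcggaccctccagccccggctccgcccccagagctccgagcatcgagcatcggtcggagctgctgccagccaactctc
Flnc: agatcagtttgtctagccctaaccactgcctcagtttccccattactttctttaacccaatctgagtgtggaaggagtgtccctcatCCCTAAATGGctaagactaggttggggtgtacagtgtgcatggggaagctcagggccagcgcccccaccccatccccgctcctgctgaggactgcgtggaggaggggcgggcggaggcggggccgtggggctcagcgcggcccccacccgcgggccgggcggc
Ahnak: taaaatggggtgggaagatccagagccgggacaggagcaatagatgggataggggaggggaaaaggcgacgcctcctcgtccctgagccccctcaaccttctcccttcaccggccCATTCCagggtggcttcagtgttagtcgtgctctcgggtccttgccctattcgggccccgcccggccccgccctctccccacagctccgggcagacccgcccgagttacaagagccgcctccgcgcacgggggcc
RefSeq promoter windows of 300 bases, with 250 before and 50 after the start, were given for 27 of the 38 genes, as 33 windows. The strict CArG box, read on both strands, was in 2 of these 33 windows, those of Myl9 (161 bases before the start, written -161, as CCTAATAAGG) and Cnn2 (-56, CCTTATAAGG), and in 1.63% of all 32851 mouse windows. With 1 middle letter free, it was in 4 of 33, which added Acta2 (-84, CCCTATATGG, and -34, CCTTGTTTGG) and Flnc (-163, CCCTAAATGG), and in 9.98% of all windows. GGAATG or its reverse complement CATTCC was in 10 of 33 windows, of 9 genes (Acta2, Ahnak, Ahnak2, Anxa1, Flna, Flnc, Tagln2, Tpm1 and Zeb2), and in 14.7% of all windows. The AP-1 site TGANTCA was in 3 of 33 windows, those of Anxa2, S100a11 and Zeb2, and in 7.81% of all. The E-box CACCTG, which ZEB and SNAI proteins are known to bind, was in 3 of 33, those of Cav1, Myl9 and Sparc, and in 20.2% of all. These matches are letters in a window, not measured binding. Overlapping windows of a gene were counted separately, so the same TEAD core of Flnc counts in both of its windows.

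The targeted gene was read first. Kat7 (Entrez 217127, chr11:95271853-95310246) had 416, 4, 253 and 1 reads in deleted replicates 1 to 4, or 26.4, 0.367, 13.9 and 0.0870 CPM, against 85.8, 77.1, 81.0 and 92.1 CPM in intact replicates 1 to 4. Every deleted library lay below every intact one, but deleted replicates 1 and 3 kept 31.4% and 16.5% of the intact mean, while replicates 2 and 4 kept 0.437% and 0.104%. The log2 fold change was -3.02 ± 1.10 (SE) with an adjusted p of 0.128 by edgeR's quasi-likelihood test, and an exact permutation test (two-sided, on log2 CPM) gave p = 0.0286, the smallest its 70 arrangements allow. Which exons the deletion removes is not given in the sources used here, so reads from remaining exons would count as Kat7. The mitochondrial share of counts was 29.9%, 19.0%, 17.1% and 34.4% in deleted replicates 1 to 4, against 19.0% to 23.5% in the intact ones.

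Of the 27 tested genes, 6 were called higher in deleted libraries at an adjusted p under 0.05 (Acta2, Flnc, Ahnak, Sparc, Prelp and Thbs2), beside 5.1% of all genes tested, and 1 was called lower (Zeb1), beside 2.8% of all. The remaining 20 were not called. The 4 deleted values were all higher than the 4 intact values for 6 of the 27, the same 6 genes, beside 10.7% of all genes tested, and all lower for 2, Zeb1 and Zeb2, beside 9.21% of all. The median log2 fold change was 0.81 over the 27 and 0.05 over all genes tested, with 20 fitted above 0 and 7 below. Ahnak and Tagln passed the filter with all 4 deleted libraries but 1 intact library over its level, and Prelp with 2, so counts over the 27 lean toward genes that were high in deleted cultures. None of the 7 calls remained with any 1 intact library removed, when the number of genes called in the whole table also fell to between 189 and 261, against 1066 with all libraries. With 1 deleted library left out, 7 of the 7 remained without replicate 1, 6 without replicate 2 (Zeb1 lost, adjusted p 0.0522), 3 without replicate 3 (Acta2, Sparc and Thbs2) and 3 without replicate 4 (Ahnak, Sparc and Prelp). This fit treats littermates as independent. With litter as a random block in limma-voom, 1 of the 7 remained called (Sparc, adjusted p 0.0246), beside 2 in limma-voom without the block (Sparc and Zeb1). With littermates summed none remained by edgeR, with adjusted p from 0.0613 (Sparc) to 0.156 (Flnc).

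**Figure D1:**
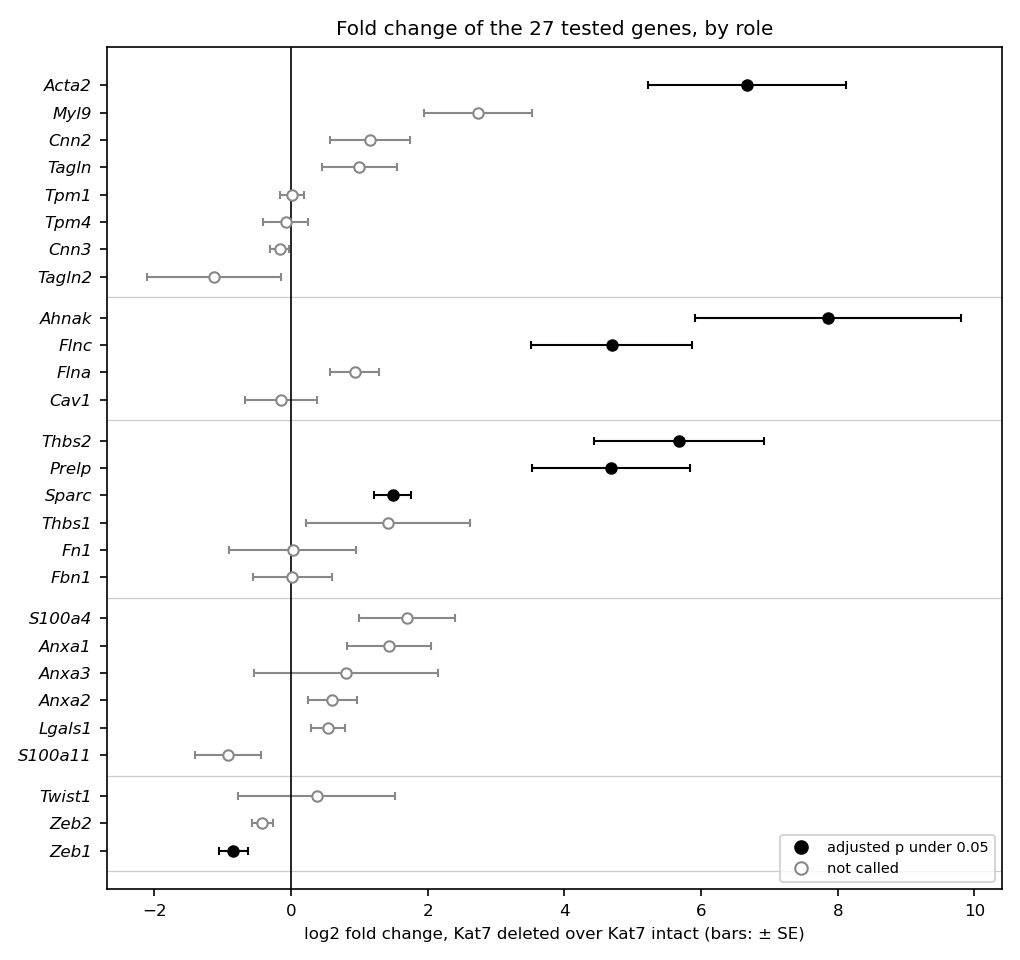
Log2 fold change (Kat7 deleted over Kat7 intact) with its approximate standard error for the 27 tested genes, grouped by role and ordered within each group. Filled points are the 7 genes called at an adjusted p under 0.05, 6 to the right of 0 and Zeb1 to the left, with Ahnak farthest right at 7.86.

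Among the contractile actin apparatus, 11 genes in all, 8 were tested and 1 was called, smooth muscle alpha-actin. Acta2 (chr19:34240336-34255585) stood at 1.90, 191, 6.92 and 107 CPM in deleted replicates 1 to 4, against 0.713, 0.837, 0.636 and 0.785 CPM in intact replicates 1 to 4. Each deleted library was above the intact range, with replicates 2 and 4, which had almost no Kat7 reads, far above replicates 1 and 3. Its log2 fold change was 6.67 ± 1.45 (SE), with adjusted p 0.0322. It was 5.67 without deleted replicate 2 (adjusted p 0.0311) and 6.47 without deleted replicate 4 (adjusted p 0.0517). Reads of near-identical actin genes may be split between copies, and Actg2, the enteric smooth muscle actin, had only 0 to 12 reads in any library.

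Myl9, the regulatory light chain of smooth muscle and non-muscle myosin, had the same pattern across deleted cultures at lower levels. It stood at 0.951, 18.4, 3.13 and 10.8 CPM in deleted replicates 1 to 4, against 1.14, 1.02, 1.52 and 1.22 CPM in the intact ones. Replicates 2, 3 and 4 were above every intact library and replicate 1 was below them all, so the genotypes overlapped. Its log2 fold change of 2.74 ± 0.79 (SE) missed the threshold, with adjusted p 0.0686, and passed without deleted replicate 1. Tagln, the early smooth muscle marker transgelin, was low throughout, at 0.951, 0.918, 0.714 and 2.61 CPM in deleted libraries against 0.499, 0.538, 0.342 and 1.13 CPM in intact ones (adjusted p 0.280). Its exons overlap those of Gm48529 over 78.2% of their length and Pcsk7 over 6.81% on the opposite strand, so its reads are uncertain without a stated strand setting. Tagln2, a broadly expressed relative, was spread widely in deleted cultures, at 0.254, 31.1, 4.17 and 34.3 CPM, against 34.7, 50.5, 23.2 and 42.2 CPM in intact ones. The pair with Kat7 reads left lay below every intact library, the pair without lay inside the intact range, and the fold change was not called (log2 -1.12 ± 0.98, adjusted p 0.502).

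Tropomyosins and calponins, which stabilise actin filaments and restrain myosin, made up the bulk of this group. Per kilobase, Tpm4 and Cnn3 were its most abundant members, with a mean of 170 and 96.8 RPKM in deleted and 179 and 109 RPKM in intact libraries (RPKM, the CPM divided by gene length in kilobases). Tpm4 stood at 158, 589, 324 and 344 CPM in deleted libraries, against 379, 405, 347 and 360 CPM in intact ones. Its deleted values lay on both sides of a narrow intact range and it was not called (log2 -0.08 ± 0.33, adjusted p 0.907). Cnn3 stood at 224, 158, 220 and 173 CPM in deleted and at 223, 232, 210 and 206 CPM in intact libraries, again overlapping (adjusted p 0.497), and 26.9% of its length is shared with the opposite-strand Gm42928. Tpm1 ranged from 74.0 to 124 CPM in deleted and from 88.0 to 102 CPM in intact libraries (adjusted p 0.960). Cnn2 stood at 30.1 CPM in deleted replicate 2, with 3.74 to 9.72 CPM in the other deleted libraries and 3.53 to 7.02 CPM in the intact ones (adjusted p 0.245). Cnn1, the smooth muscle calponin, had 2 to 6 reads in deleted and 1 to 9 in intact libraries, and the muscle tropomyosin Tpm2 had 1 to 10 in deleted and 1 to 7 in intact ones. The label "contractile" was thus borne by Acta2 and, uncalled, Myl9. Other defining smooth muscle genes varied. Smoothelin (Smtn), a cytoskeletal protein of contractile smooth muscle, stood at 10.02, 95.29, 37.23 and 46.52 CPM in deleted libraries, against 20.17, 12.56, 15.02 and 19.50 CPM in intact ones. Replicates 2, 3 and 4 were above every intact library and replicate 1 below them all, as for Myl9, and it was not called (log2 1.49 ± 0.55, adjusted p 0.134). Myosin heavy chain Myh11, by contrast, had 3, 19, 2 and 14 reads in deleted and 5, 1, 5 and 6 in intact libraries, and desmin (Des) had 1 to 3 and 2 to 6 reads. The myosin light chain kinase gene Mylk stood at 10.1, 2.75, 7.08 and 15.6 CPM in deleted libraries, against 22.8, 24.0, 20.2 and 27.9 CPM in intact ones. Every deleted library was thus below every intact one, with replicate 2 the lowest, but Mylk was not called (log2 -1.42 ± 0.43, adjusted p 0.0777).

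**Figure D2:**
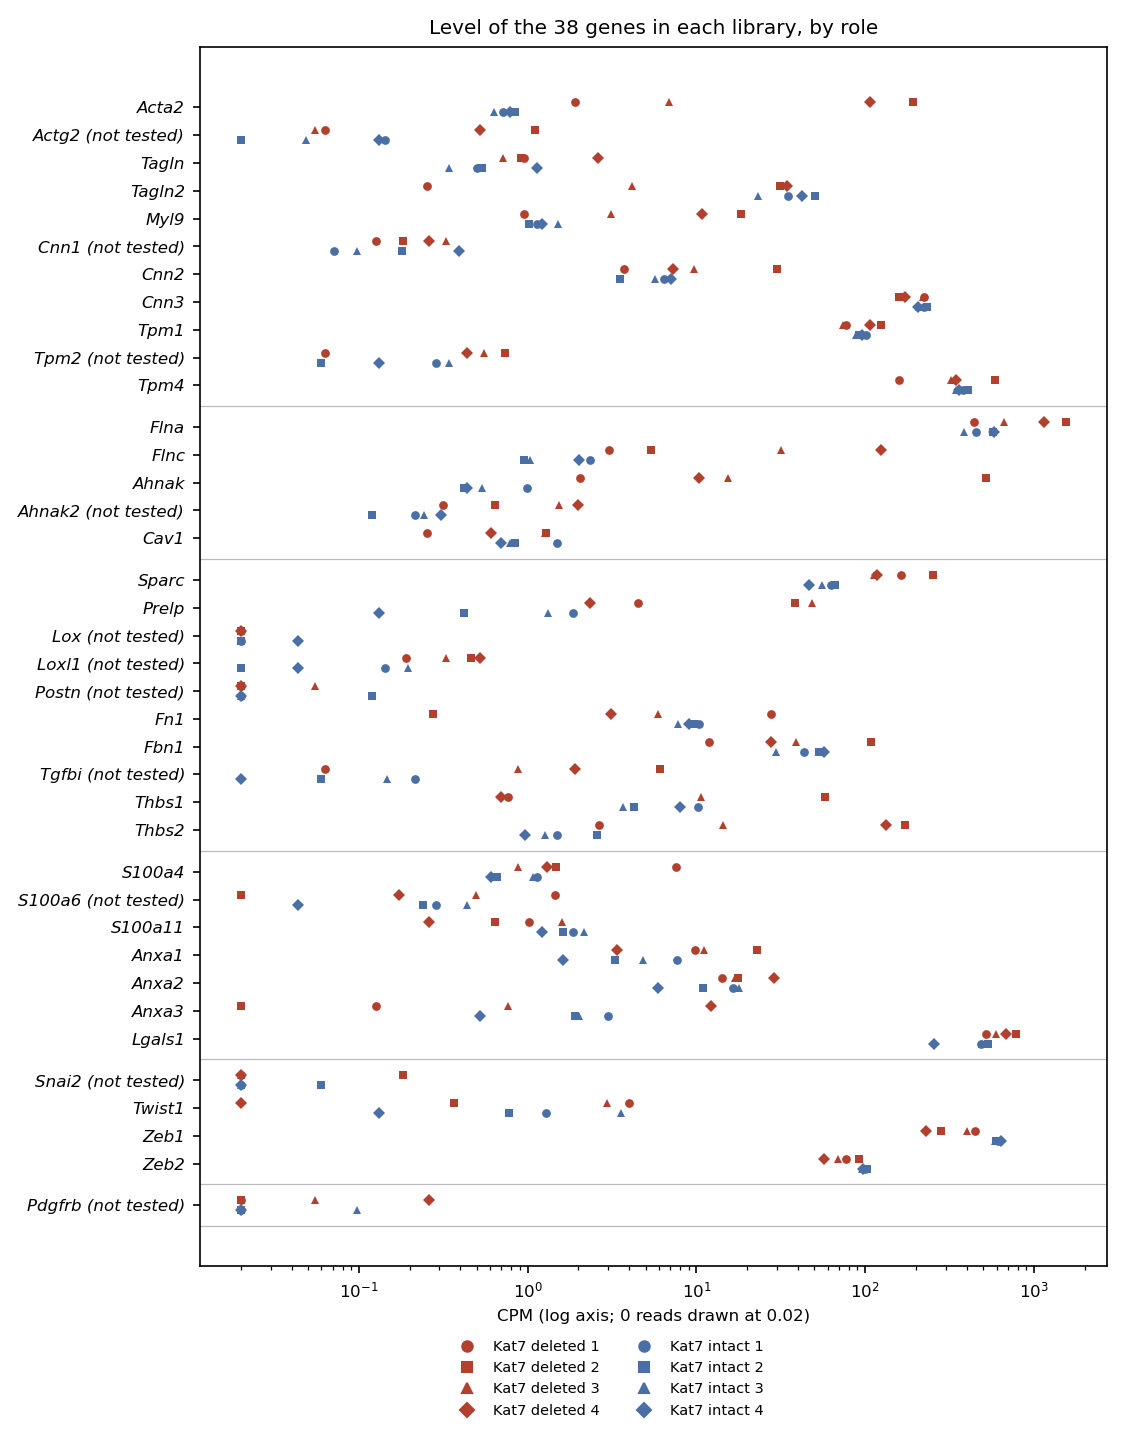
Level in CPM (log axis) of each of the 38 genes in each library, with Kat7 deleted libraries above Kat7 intact ones on each line, grouped by role, 0 reads drawn at 0.02. Deleted points spread widely for genes such as Acta2, Tagln2, Ahnak, Flnc, Thbs1, Thbs2 and Fn1, whose intact points lie closer together. Intact points of some other genes also spread widely, 27.3-fold for Twist1 and 14.2-fold for Prelp.

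Among the cortical scaffolds and crosslinkers, 4 of 5 genes were tested and 2 were called higher. Ahnak, a giant scaffold protein beneath the plasma membrane, had the largest fold change of the 27. It stood at 2.03, 518, 15.4 and 10.3 CPM in deleted replicates 1 to 4, against 0.998, 0.419, 0.538 and 0.436 CPM in the intact ones. Deleted replicate 2 was 50.1 times deleted replicate 4, although both had almost no Kat7 reads. The log2 fold change was 7.86 ± 1.95 (SE), adjusted p 0.0464, and 3.97 without deleted replicate 2 (adjusted p 0.0126). It is calculated against only 7 to 14 reads per intact library. The related Ahnak2, not tested, had 5, 7, 28 and 23 reads in deleted and 3, 2, 5 and 7 in intact libraries. On the CPM scale its deleted libraries lay just above the intact ones, 0.317 to 2.00 against 0.120 to 0.305 CPM.

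Filamins crosslink actin filaments beneath the membrane, and the muscle isoform Flnc is normally concentrated in striated muscle. Flnc stood at 3.04, 5.42, 31.8 and 124 CPM in deleted replicates 1 to 4, against 2.35, 0.957, 1.03 and 2.01 CPM in intact ones. The highest values were those of the littermates 3 and 4, while replicate 2, highest for Acta2 and Ahnak, was low: replicate 4 was 23.0 times replicate 2. On the log2 scale Flnc changed by 4.70 ± 1.18 (SE), adjusted p 0.0476, and 3.09 without deleted replicate 4 (adjusted p 0.0703). Flna, the non-muscle filamin and the most abundant of this group per kilobase (mean 114 RPKM in deleted, 59.8 RPKM in intact libraries), stood at 444, 1542, 668 and 1148 CPM in deleted libraries, against 455, 573, 385 and 582 CPM in intact ones. Replicates 2, 3 and 4 were above every intact library and replicate 1 was inside the intact range. It was not called (log2 0.93 ± 0.36, adjusted p 0.149), but was without deleted replicate 1. Cav1, a coat protein of caveolae, had 4 to 23 reads in deleted and 14 to 21 in intact libraries (adjusted p 0.884).

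The extracellular matrix group held 10 genes, of which 6 were tested and 3 were called higher: Sparc, Thbs2 and Prelp. Sparc, a collagen-binding matricellular protein that radial glia and astrocytes also make, was the most even of them. It stood at 163, 253, 113 and 118 CPM in deleted replicates 1 to 4, against 62.8, 65.8, 55.4 and 46.6 CPM in intact ones. Every deleted library was at least 1.96 times the intact mean, whatever its Kat7 reads. Its log2 fold change was 1.49 ± 0.27 (SE), adjusted p 0.0165, and it ranged from 1.19 to 1.63 with any library left out. Sparc was called in 16 of 21 analyses, more than any other of the 38, and missed when any 1 intact library was left out (adjusted p up to 0.0720) and when littermates were summed (adjusted p 0.0613).

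Thbs2, a thrombospondin that restrains vessel growth and binds matrix proteases, followed the pattern of Acta2. It stood at 2.66, 172, 14.3 and 132 CPM in deleted replicates 1 to 4, against 1.497, 2.571, 1.272 and 0.960 CPM in intact ones. Deleted replicate 1 was barely above the highest intact library, and replicates 2 and 4 were 109 and 83.8 times the intact mean. The log2 fold change was 5.68 ± 1.24 (SE), adjusted p 0.0329, with 4.98 without deleted replicate 2 (adjusted p 0.0340) and 5.33 without replicate 4 (adjusted p 0.0545). Prelp, a leucine-rich proteoglycan that anchors basement membranes, had another order. It stood at 4.50, 38.4, 48.4 and 2.35 CPM in deleted libraries, against 1.85, 0.419, 1.32 and 0.131 CPM in intact ones. Here replicate 3, with 253 Kat7 reads, was highest and its littermate 4, with 1 read, was lowest of the deleted. Its log2 fold change was 4.68 ± 1.16 (SE), adjusted p 0.0464, and 4.03 without deleted replicate 3 (adjusted p 0.0865). It is calculated against only 26, 7, 27 and 3 reads in intact replicates 1 to 4. About 9.72% of the Prelp length is shared with the opposite-strand Gm15851.

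The other matrix genes diverged between deleted cultures without a shared direction. Thbs1, the thrombospondin that activates latent transforming growth factor beta, stood at 0.761, 58.1, 10.7 and 0.696 CPM in deleted libraries, against 10.2, 4.25, 3.67 and 8.03 CPM in intact ones. Replicates 2 and 3 were above the intact range and replicates 1 and 4 below it (log2 1.42 ± 1.20, adjusted p 0.486). Fibronectin (Fn1) stood at 27.8, 0.275, 5.93 and 3.13 CPM in deleted libraries, against 10.3, 9.69, 7.73 and 9.03 CPM in intact ones. Replicate 1, with the most Kat7 reads left, was above every intact library, and the other deleted libraries were below them all, so that the means were close to equal (log2 0.02 ± 0.92, adjusted p 0.993). Fibrillin-1 (Fbn1), the core of microfibrils, stood at 11.9, 109, 38.8 and 27.6 CPM in deleted libraries, against 43.5, 53.6, 29.5 and 57.0 CPM in intact ones (adjusted p 0.986). About 24.7% of the Fbn1 length is shared with the opposite-strand Gm9913.

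Tgfbi, a matrix protein induced by transforming growth factor beta, was below the filter, with 1, 66, 16 and 22 reads in deleted libraries against 3, 1, 3 and 0 in intact ones. Replicates 2, 3 and 4 were above every intact library and replicate 1 was not. The collagen crosslinking enzyme gene Loxl1 had 3 to 6 reads in deleted and 0 to 4 in intact libraries. Lox, another such enzyme gene, had 0 reads in every deleted library and 1 read in a single intact library. Periostin (Postn), a myofibroblast matrix protein, had 1 read in deleted replicate 3 and 2 reads in intact replicate 2.

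The calcium and phospholipid binding group held 7 genes, 6 of them tested and none called by edgeR, DESeq2 or limma-voom, although 2, S100a4 and Anxa1, had an unadjusted p under 0.05 in edgeR. Galectin-1 (Lgals1), a secreted lectin that neural stem cells express, was the most abundant of the 38 per kilobase, with a mean of 807 RPKM in deleted and 554 RPKM in intact libraries. It stood at 520, 787, 594 and 682 CPM in deleted libraries, against 485, 538, 492 and 257 CPM in intact ones. The genotypes overlapped only where deleted replicate 1 lay below intact replicate 2 (log2 0.54 ± 0.25, adjusted p 0.200). Annexin A2 (Anxa2), a membrane scaffold, stood at 14.1, 17.6, 17.0 and 28.8 CPM in deleted libraries, against 16.5, 10.9, 17.8 and 5.89 CPM in intact ones, and overlapped (adjusted p 0.317).

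Annexin A1 (Anxa1), known for limiting inflammation, ranged from 3.39 to 22.9 CPM in deleted and from 1.61 to 7.70 CPM in intact libraries (log2 1.44 ± 0.61, adjusted p 0.178). Anxa3 had 2, 0, 14 and 140 reads in deleted libraries against 42, 32, 41 and 12 in intact ones, so that replicate 4 alone was above the intact range (adjusted p 0.742). S100a4, also called fibroblast-specific protein, stood at 7.54 CPM in deleted replicate 1 and at 0.879 to 1.47 CPM in the other deleted libraries, against 0.611 to 1.14 CPM in intact ones (log2 1.69 ± 0.70, adjusted p 0.169). Over 60.5% of its length it overlaps the same-strand Gm42674. S100a11, a calcium sensor, had 0.261 to 1.59 CPM in deleted and 1.22 to 2.15 CPM in intact libraries (adjusted p 0.263). S100a6 had 23, 0, 9 and 2 reads in deleted libraries against 4, 4, 9 and 1 in intact ones.

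Of the 4 transcription factor genes, 3 were tested and 1 was called, lower. Zeb1, a zinc-finger repressor that holds neural progenitors undifferentiated and drives epithelial-mesenchymal transition elsewhere, stood at 447, 281, 402 and 230 CPM in deleted replicates 1 to 4, against 613, 597, 589 and 640 CPM in intact ones. Every deleted library was below every intact one, and the order of the deleted libraries was that of their Kat7 reads, which held for 2 of the 27 tested genes (Zeb1 and Twist1) and for 5.32% of all genes tested other than Kat7. The log2 fold change was -0.84 ± 0.21 (SE), adjusted p 0.0477, and it was called in 1 of the 8 fits without 1 library, that without deleted replicate 1. Zeb2, its close relative, stood at 76.7, 92.2, 68.9 and 57.2 CPM in deleted libraries, against 100.1, 102, 95.2 and 96.4 CPM in intact ones. Its genotypes did not overlap either, but it missed the threshold (log2 -0.42 ± 0.15, adjusted p 0.117) except without deleted replicate 2. Exons of Zeb2os on the opposite strand cover 7.17% of Zeb2.

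Twist1, a mesoderm and neural crest regulator, had 63, 4, 54 and 0 reads in deleted libraries against 18, 13, 73 and 3 in intact ones (adjusted p 0.864). Snai2, or Slug, had 2 reads in deleted replicate 2 and 1 read in intact replicate 2, with 0 elsewhere. The only receptor on the list, Pdgfrb of mural cells and fibroblasts, had 0, 0, 1 and 3 reads in deleted libraries against 0, 0, 2 and 0 in intact ones.

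Set beside the Kat7 reads of the same culture, the genes fell into several patterns. Deleted replicates 2 and 4, with 4 and 1 Kat7 reads, were the highest of the 4 deleted libraries for 9 of the 27 tested genes (Acta2, Tagln2, Myl9, Tpm1, Tpm4, Flna, Thbs2, Anxa2 and Lgals1), or 33.3%, beside 16.8% of all genes tested. Replicates 2 and 3 were the highest for 7 (Cnn2, Ahnak, Cav1, Prelp, Fbn1, Thbs1 and Anxa1), or 25.9% beside 19.7%. Replicates 1 and 3, with the Kat7 reads, were the highest for 5 (Cnn3, Fn1, S100a11, Twist1 and Zeb1), or 18.5% beside 18.9%. An order exactly opposite to that of Kat7 occurred for 2 genes, Tagln2 and Anxa2, beside 4.37% of all genes tested other than Kat7. With 4 deleted cultures from 3 litters these orders carry no test.

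**Figure D3:**
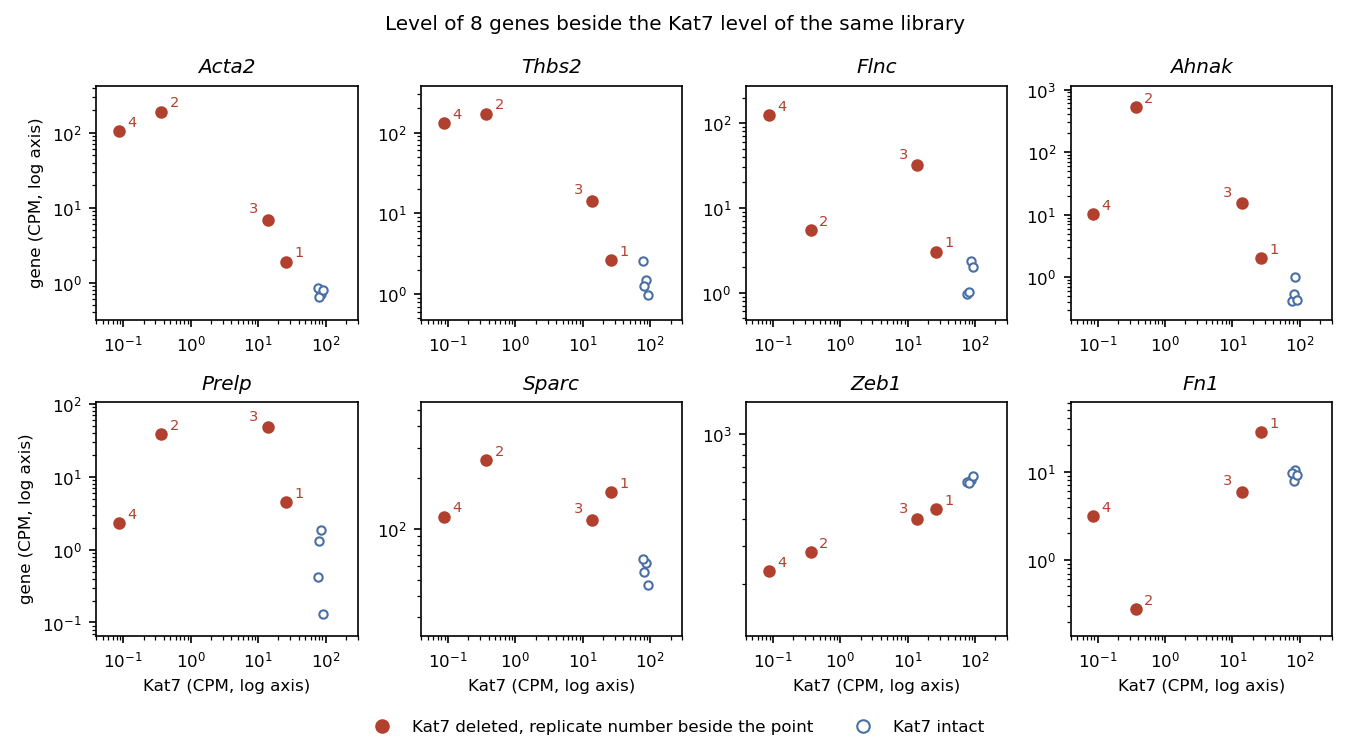
Level of 8 genes in CPM against the Kat7 level in CPM of the same library, both on log axes, with the replicate number beside each Kat7 deleted point and Kat7 intact libraries as open points. Acta2 and Thbs2 are highest in deleted replicates 2 and 4, Ahnak in replicate 2, Flnc in replicate 4 and Prelp in replicates 2 and 3, while Zeb1 falls in the order of the Kat7 level.

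Counted per culture, 10, 16, 12 and 15 of the 27 tested genes lay above the highest intact library in deleted replicates 1 to 4, or 37.0%, 59.3%, 44.4% and 55.6%. The same held for 39.4%, 36.8%, 33.9% and 37.1% of all genes tested. Below the lowest intact library were 11, 6, 6 and 10 of the 27, or 40.7%, 22.2%, 22.2% and 37.0%, beside 35.8%, 35.6%, 32.4% and 37.8% of all genes tested. Replicate 2 was the highest deleted library for 15 of 27, or 55.6%, beside 30.9% of all genes tested.

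**Figure D4:**
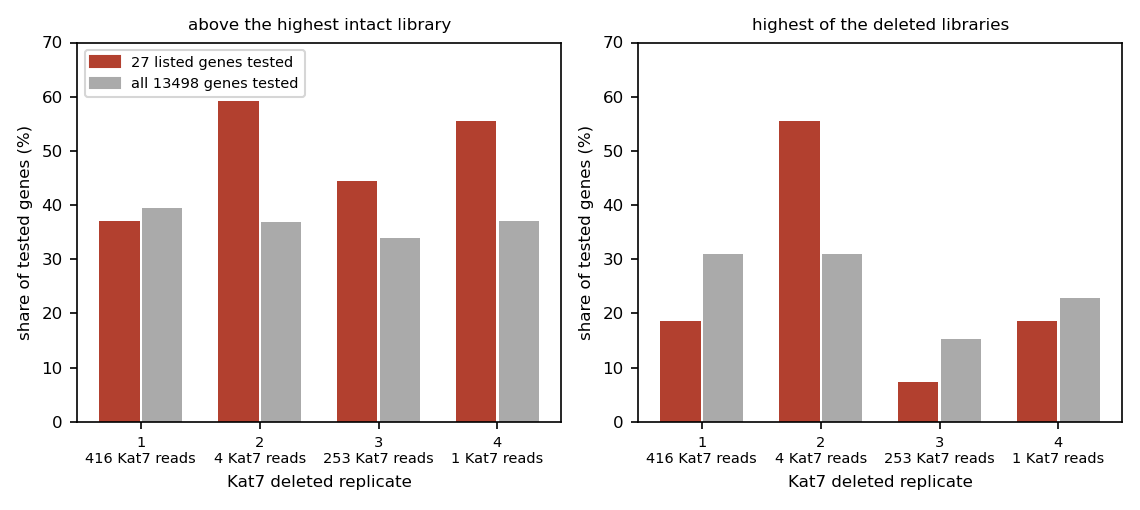
Share (%) of the 27 tested listed genes and of all 13498 genes tested that lay above the highest Kat7 intact library (left) or were highest in that library among the Kat7 deleted ones (right), for each deleted replicate with its Kat7 reads. The listed genes reach 59.3% and 55.6% above the intact range in replicates 2 and 4, and replicate 2 holds the highest value for 55.6% of them.

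Spread between cultures was larger for the deleted genotype. The median SD of log2 CPM over the 27 was 1.24 in deleted and 0.43 in intact libraries, beside 0.38 and 0.17 over all genes tested. The SD was larger in deleted libraries for 25 of 27, beside 86.6% of all genes tested. More than 4-fold separated the highest from the lowest deleted library for 17 of 27, or 63.0%, beside 17.1% of all genes tested, and the same held between intact libraries for 4 of 27, or 14.8%, beside 2.43%. Littermates differed too. Deleted replicate 4 was 15.4 times its littermate 3 for Acta2, 9.20 times for Thbs2 and 3.90 times for Flnc, whereas replicate 3 was 20.6 times replicate 4 for Prelp and 15.4 times for Thbs1. Over the 27, the median absolute log2 difference was 0.90 between these deleted littermates and 0.33 between the intact littermates 1 and 2, beside 0.32 and 0.15 over all genes tested.

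Markers of other cell types were read in the same libraries. The 12 markers of neural stem and progenitor cells were all tested and none was called by edgeR, DESeq2 or limma-voom, with 0 at an unadjusted p under 0.05 in edgeR. They summed to 4703, 3845, 6402 and 5427 CPM in deleted libraries against 5638 to 6742 CPM in intact ones. Deleted replicates 1, 2 and 4 were thus below every intact library, with replicate 2 the lowest, and replicate 3 was inside the intact range. Of 14 smooth muscle and pericyte markers, 7 had fewer than 10 reads in every library, among them the pericyte genes Rgs5 (0 to 3 reads in deleted, 0 to 2 in intact) and Kcnj8 (0 to 1 in both), and Notch3, which radial glia also express, was the only one called (log2 1.89 ± 0.41, adjusted p 0.0322), a call lost without any 1 intact library or deleted replicate 3. DESeq2 called 2 of this list. Of the 4 markers tested, Notch3, Smtn and Mcam were fitted above 0 and 1 other below. Mcam, an adhesion molecule of pericytes and endothelium, stood at 8.56, 42.3, 27.8 and 49.2 CPM in deleted libraries, against 12.9 to 21.5 CPM in intact ones (adjusted p 0.215), and like Smtn was above the intact range in replicates 2, 3 and 4 and below it in replicate 1. The 14 markers of this list summed to 134, 202, 236 and 294 CPM in deleted libraries against 91.9 to 160 CPM in intact ones. Of 15 fibroblast and meningeal markers, 4 were tested, with 3 fitted above 0 and 1 below. By edgeR 0 of them were called, and DESeq2 called 1 higher. The 15 summed to 71.3, 572, 64.0 and 46.6 CPM in deleted libraries, against 40.8 to 46.0 CPM in intact ones. Deleted replicate 2 stood apart, through 3633 reads of the fibrillar collagen gene Col3a1 and 916 of decorin (Dcn). Elsewhere Col3a1 had 2, 4 and 1 reads in deleted replicates 1, 3 and 4 and 2 to 6 in intact libraries, and Dcn 0, 0 and 1 in those deleted libraries and 0 to 1 in intact ones. Pdgfra, a receptor of fibroblasts and of oligodendrocyte precursors, had 649 reads in deleted replicate 2, or 59.6 CPM, against 1.33, 3.57 and 10.7 CPM in deleted replicates 1, 3 and 4 and 6.16 to 13.3 CPM in intact libraries. In that same replicate 2, Col1a1 had 17 reads, Col1a2 had 4 and Lum had 0, against 1 to 7, 0 to 5 and 0 to 1 in intact libraries. Replicate 2 is also the library with the highest level of 15 of the 27 genes, and the part of fibroblast-type RNA in those levels was not tested. Without it, Acta2, Flnc, Ahnak, Sparc, Prelp and Thbs2 were all still called, with Ahnak at log2 3.97 against 7.86. That fit is no test of fibroblast-type RNA in any library.

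**Figure D5:**
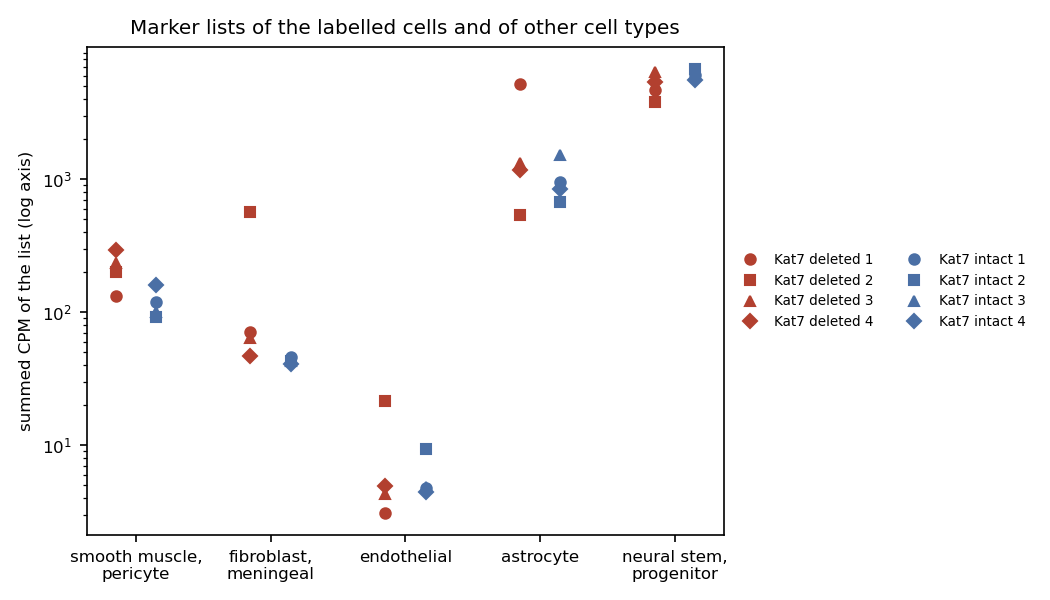
Summed CPM (log axis) of 5 marker lists in each library, Kat7 deleted points to the left of Kat7 intact points. The fibroblast and meningeal sum of deleted replicate 2 is 572 CPM against 40.8 to 46.0 CPM in intact libraries. The neural stem and progenitor sums are 4703, 3845, 6402 and 5427 CPM in deleted replicates 1 to 4, against 5638 to 6742 CPM in intact libraries.

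Endothelial markers summed to 3.11, 21.7, 4.34 and 4.96 CPM in deleted and 4.45 to 9.45 CPM in intact libraries, and microglial ones to 0.609 to 2.41 CPM in deleted and 2.74 to 3.71 CPM in intact ones. Neural crest markers summed to 61.3, 19.8, 46.9 and 42.3 CPM in deleted and 68.1 to 107 CPM in intact libraries. Beside the calls in these marker lists, edgeR called 5.1% of all genes tested higher and 2.8% lower. Of 3 endothelial markers tested, 1 was called lower by each of edgeR, DESeq2 and limma-voom. Only 1 marker was tested in each of the microglial and neural crest lists, and edgeR called neither. DESeq2 called the neural crest one lower. Astrocyte markers summed to 5175, 542, 1322 and 1174 CPM in deleted libraries and 677 to 1529 CPM in intact ones. Of the 8 astrocyte markers, 2 were called higher by edgeR (Aqp4 and Aldoc) and 2 each by DESeq2 and limma-voom, and the median log2 fold change was 1.90. Choroid plexus and ependyma markers summed to 21.5, 23.2, 48.1 and 43.8 CPM in deleted and 18.2 to 23.2 CPM in intact libraries, and 1 of 3 tested, the cilia regulator Foxj1, was called higher. The astrocyte sum was highest in deleted replicate 1, the deleted culture with the lowest Acta2, Thbs2 and Ahnak, and the part of astrocyte RNA in those levels was not tested.

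Other genes of the pathways named above, none of them among the 38, were taken as 4 lists. Of 23 tested SRF and MRTF regulators and other actin genes, 3 were called higher and 1 lower. The shares were 13.0% and 4.35%, beside 5.1% and 2.8% of all genes tested. At an unadjusted p under 0.05 in edgeR the counts were 11 and 2, beside 2131 and 1408 of all 13498. DESeq2 called 8 higher and 2 lower, and limma-voom 3 and 2. The median log2 fold change was 0.42, beside 0.05 over all genes tested. Villin (Vil1), an actin bundler of microvilli, stood at 3.80, 3.21, 8.35 and 6.78 CPM in deleted libraries, against 0.5702, 0.5382, 1.076 and 0.8287 CPM in intact ones. The genotypes did not overlap (log2 2.85 ± 0.42, adjusted p 0.00881), and the call was kept in all 8 fits without 1 library. The focal adhesion gene vinculin (Vcl; log2 0.88 ± 0.22, adjusted p 0.0452) and non-muscle myosin heavy chain Myh9 (0.69 ± 0.17, adjusted p 0.0455) were also higher. Csrp2, a LIM protein of smooth muscle, was lower (log2 -0.93 ± 0.24, adjusted p 0.0489). Srf itself ranged from 33.7 to 59.2 CPM in deleted and from 39.0 to 67.9 CPM in intact libraries (adjusted p 0.718). The coactivator gene Mrtfa stood at 13.7, 13.6, 22.8 and 23.0 CPM in deleted libraries, against 12.6, 9.45, 10.3 and 10.4 CPM in intact ones, without overlap but not called (log2 0.77 ± 0.22, adjusted p 0.0686). Mrtfb stood at 77.7, 51.6, 144.5 and 152.0 CPM in deleted libraries, against 57.6, 53.0, 46.7 and 64.9 CPM in intact ones, and was not called either (log2 0.94 ± 0.32, adjusted p 0.112).

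Of 18 tested YAP and TEAD pathway genes, 2 were called higher and 0 lower by edgeR, with a median log2 fold change of 0.17. The shares were 11.1% and 0%, beside 5.1% and 2.8% of all genes tested. At an unadjusted p under 0.05 the counts were 3 and 0, and DESeq2 and limma-voom called 0 lower as well. The called genes were the transcription factor gene Tead1, at 71.3, 89.4, 102 and 68.3 CPM in deleted against 53.1, 47.7, 46.7 and 52.7 CPM in intact libraries (log2 0.73 ± 0.15, adjusted p 0.0262), and the YAP relative Wwtr1, also called TAZ (0.86 ± 0.22, adjusted p 0.0491). The classical target Ccn2 had 0, 31, 7 and 0 reads in deleted libraries against 1, 0, 0 and 0 in intact ones. Of 17 tested genes of the transforming growth factor beta pathway, 3 were called higher and 1 lower, with a median of 0.25. The shares were 17.6% and 5.88%, beside the same 5.1% and 2.8%. DESeq2 called 6 higher and 1 lower, and limma-voom 1 and 1. The ligand gene Tgfb3 stood at 6.28, 33.6, 31.3 and 28.1 CPM in deleted libraries, against 6.49, 3.83, 5.18 and 3.14 CPM in intact ones, with only deleted replicate 1 inside the intact range (log2 2.41 ± 0.49, adjusted p 0.0271). Of the proteins that store latent ligand in the matrix, Ltbp3 was higher (log2 1.29 ± 0.26, adjusted p 0.0239) and Ltbp1 lower (-0.93 ± 0.23, adjusted p 0.0430), and the corepressor gene Tgif1 was higher (1.32 ± 0.30, adjusted p 0.0369).

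Of 7 tested genes from the remaining epithelial-mesenchymal transition list, Itga5, the fibronectin receptor subunit, was called higher. N-cadherin (Cdh2), an adhesion protein of both neural progenitors and mesenchyme, was called lower (log2 -0.72 ± 0.16, adjusted p 0.0351). Each is 14.3% of the tested genes of this list, beside 5.1% called higher and 2.8% called lower of all genes tested. Itga5 stood at 39.0, 39.5, 45.1 and 58.8 CPM in deleted libraries, against 23.4, 19.5, 18.3 and 17.8 CPM in intact ones. These values did not overlap (log2 1.21 ± 0.17, adjusted p 0.00801) and Itga5 was called in all 21 analyses. Of the 12 calls in these 4 lists, all but those of Vil1 and Itga5 failed to hold with any 1 intact library removed (highest adjusted p 0.147, Myh9). Leaving out deleted replicate 3 or 4 also ended the calls of Vcl, Myh9, Wwtr1, Tgif1, Ltbp1 and Cdh2, and leaving out replicate 3 that of Tgfb3. Csrp2 was called only without replicate 3 among those fits.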

How the data were processed

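RNA-seq libraries of 4 Kat7 deleted and 4 Kat7 intact neurosphere cultures were read as 100 bp single-end reads, per the labels' protocols, and grouped by the genotype in their titles. The deposited values are whole-number counts per gene, not normalized by the authors, beside a gene length in bases. The tools CASAVA 1.8.2 and featureCounts and the build mm10 are listed in the submitters' processing notes. Neither the aligner nor the strand setting is given in the sources used here. Exact Entrez identifiers gave symbols and coordinates from RefSeq (GRCm38.p6) for 25275 of 27179 identifiers, all 38 genes among them, and exon overlaps were read from GENCODE (GRCm38).

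All genes were fitted together with edgeR 4.0.16 in R 4.3.3: filterByExpr (minimum count 10), TMM scaling, robust dispersions, quasi-likelihood F test (deleted over intact), Benjamini-Hochberg over 13498 genes, called under 0.05. Unless another test is named, adjusted p-values are its own. CPM use TMM-scaled library sizes; RPKM divide CPM by the deposited length. Standard errors are approximate, the size of the log2 fold change divided by the root of F, fold changes use a prior count of 0.125 and log2 CPM a prior of 2. Alternatives used DESeq2 1.42.0 and limma 3.58.1. On counts simulated for this comparison over 13346 genes, the fit called 33% of 2-fold and 80% of 4-fold changes made by design, and 9 unchanged genes. The simulation gave each gene the same spread in both genotypes and held no litter effect. Deleted libraries spread more in the data, so these rates may not hold for them. Each library is 1 fetus, so p-values measure the spread between these fetuses and their cultures. Counting error alone limits a gene with few reads.

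The 38 genes, their roles, the pathway and marker lists and the tests were chosen with earlier results of these data known. Values per library were given for called genes, for genes whose genotypes did not overlap above 5 CPM and for the 2 most abundant per kilobase of each role. Up to 4 called genes by p were named from each pathway list. Other genes given per library, among them Myl9, Tagln, Tagln2, Fn1, Fbn1, Thbs1 and Tgfbi, and the markers and uncalled pathway genes named, were chosen after their values were seen.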

Additional observations from a re-analysis of the deposited data

Results flagged for a closer look

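Lgals1 stood at 256.94 CPM in intact replicate 4, well below the other 3 intact libraries at 485 to 538 CPM. The gap to its nearest neighbour was 0.859 of the range of the group, over Dixon's 95% limit for 4 samples. A total of 56 groups of 4 libraries were examined, and chance alone passes that limit in about 1 of 20 groups. Deleted libraries stood at 520 to 787 CPM, and the log2 fold change of Lgals1 with any 1 library left out lay between 0.33 and 0.65.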

How the results depend on the processing

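The 7 calls among the 38 genes kept their direction in every one of 20 other analyses. Their genotypes did not overlap, so refits of the same libraries could hardly reverse it, and this adds no support. The number of the 38 genes called was 4 with library totals alone, 2 with no filter on low counts, 2 with limma-voom, 1 with limma-voom and litter as a random block, 0 with littermates summed, 11 without deleted replicates 1 and 3, and 0 to 11 with 1 library left out, against 7. Over all genes it was 673 with library totals alone, 2200 with DESeq2, 422 with litter as a random block, 193 with littermates summed, 2299 without deleted replicates 1 and 3, and 189 to 2182 with 1 library left out, against 1066. Over the 4 pathway lists it was 7, 23, 2, 1 and 22 in those 5 analyses in turn, 19 without deleted replicates 1 and 4, and 2 to 20 with 1 library left out, against 12. The cause of these differences was not tested. Leaving out libraries changes both their number and which ones remain, and counts moved both up and down. Kat7 itself was called with limma-voom (log2 -4.92) and without deleted replicates 1 and 3 (log2 -8.51). DESeq2 called 7 of the 38, with Myl9 in place of Ahnak, for which it gave no adjusted p. With library totals alone, the median over all genes of the log2 fold change moved to -0.09, against 0.05.

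Same-numbered libraries came from different litters, and whether they shared a handling step was not tested. The correlations of their deviations from the group means were 0.0961, 0.221, 0.110 and 0.331, all positive. Deleted replicates 2 and 4 each correlated best with the intact library of the same number and negatively with every other. Deleted replicates 1 and 3 each correlated best with an intact library of another number. With the replicate block, 319 genes, 1 of the 38 (Sparc) and 4 pathway genes were called.

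Depth limits the 11 untested genes, which had at most 66 reads in any library. It also limits the called genes Ahnak, with 7 to 14 reads per intact library, and Prelp, with 26, 7, 27 and 3 reads in intact replicates 1 to 4.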
